A study of Mus musculus with 6 samples.

Results

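The 46 genes described here are a named set of cell division genes, which encode the DNA replication machinery, the enzymes of deoxynucleotide supply, cyclins and their kinases, and the proteins of the mitotic spindle and chromosomes. They are listed by gene symbol among the 54532 genes of the count table, and the list was drawn up with earlier results of these data known. Of these 46 genes, 17 act mainly in DNA replication and its onset and 29 mainly in mitosis. All 46 passed the filter on low counts, which left 15751 genes in the test. The RNA came from the epididymal fat, a visceral depot, of male C57BL/6J mice, sequenced as 3 libraries from ND-fed mice (4.5% fat, ND1 to ND3) and 3 from HFD-fed mice (60% fat, HFD1 to HFD3). The mice were put on either diet at 4 weeks of age for 16 weeks, and had no further treatment. The study sequenced this fat to ask whether cells like cancer-associated adipocytes are present in obese mice. The sources used here do not say how many animals gave each library, so the p-values measure only the spread between these samples.

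Cells that divide first load the MCM helicase onto replication origins, copy their DNA under E2F transcription factors and cyclin E and A with their kinases, and then enter mitosis under cyclin B and Cdk1. Mitosis genes such as those of the Aurora and Polo kinases are switched on later in the cycle than replication genes, through promoters that bind NF-Y and the MuvB complex with B-Myb and FoxM1. In adipose tissue, mature adipocytes are largely non-dividing, while macrophages and adipocyte progenitors can proliferate in obese fat.

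The RefSeq promoter windows of these genes, which run from 250 bases before to 50 after the annotated start, hold sequence features that the choice of genes did not use. A window was found for 39 of the 46 genes, all but Mcm4, Ccne2, Ccna2, Foxm1, Aurkb, Kif20a and Tpx2. Its start lay a median of 21 bases from the GENCODE start, and more than 100 bases from it for 9 genes. The motifs searched on both strands were the CCAAT box bound by NF-Y (CCAAT), the cell cycle genes homology region or CHR (TTTGAA), 4 spellings of the E2F site (TTTGGCGC, TTTCGCGC, TTTCCCGC and TTTGCCGC) and the TATA box (TATAAA). The 5 windows that follow show these letters in the genes with the smallest adjusted p-values in each stage, E2f1 apart. They lie in GRCm38.p6 at chr11:117825965-117826264 on the minus strand (Tk1), chr8:75109259-75109558 on the plus strand (Mcm5), chr5:30666636-30666935 on the plus strand (Cenpa), chr2:164769679-164769978 on the plus strand (Ube2c) and chr13:100786437-100786736 on the minus strand (Ccnb1). Capitals mark matches to the CCAAT box, the CHR and the E2F site, on either strand.
Tk1: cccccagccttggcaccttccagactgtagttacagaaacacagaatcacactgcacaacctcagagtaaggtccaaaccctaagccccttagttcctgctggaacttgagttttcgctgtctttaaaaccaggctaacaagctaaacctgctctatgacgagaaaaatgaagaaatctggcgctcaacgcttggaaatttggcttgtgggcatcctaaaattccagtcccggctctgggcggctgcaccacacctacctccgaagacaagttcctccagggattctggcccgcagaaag
Mcm5: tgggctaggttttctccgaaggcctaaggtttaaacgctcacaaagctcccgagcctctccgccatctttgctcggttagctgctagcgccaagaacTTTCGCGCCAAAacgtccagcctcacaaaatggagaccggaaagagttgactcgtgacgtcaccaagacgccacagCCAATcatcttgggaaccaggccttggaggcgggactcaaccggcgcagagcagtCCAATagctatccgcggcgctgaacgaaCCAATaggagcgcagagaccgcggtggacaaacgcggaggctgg
Cenpa: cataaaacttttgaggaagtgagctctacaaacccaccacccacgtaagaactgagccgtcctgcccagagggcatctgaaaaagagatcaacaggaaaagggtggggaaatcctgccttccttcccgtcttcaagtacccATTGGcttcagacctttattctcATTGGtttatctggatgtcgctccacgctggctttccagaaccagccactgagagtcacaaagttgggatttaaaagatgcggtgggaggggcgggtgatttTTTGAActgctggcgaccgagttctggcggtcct
Ube2c: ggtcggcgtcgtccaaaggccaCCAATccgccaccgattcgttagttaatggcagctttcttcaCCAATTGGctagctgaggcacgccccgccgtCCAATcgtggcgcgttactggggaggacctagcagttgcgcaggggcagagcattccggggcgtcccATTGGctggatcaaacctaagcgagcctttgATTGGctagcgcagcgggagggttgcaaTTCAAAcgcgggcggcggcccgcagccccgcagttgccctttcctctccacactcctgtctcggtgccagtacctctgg
Ccnb1: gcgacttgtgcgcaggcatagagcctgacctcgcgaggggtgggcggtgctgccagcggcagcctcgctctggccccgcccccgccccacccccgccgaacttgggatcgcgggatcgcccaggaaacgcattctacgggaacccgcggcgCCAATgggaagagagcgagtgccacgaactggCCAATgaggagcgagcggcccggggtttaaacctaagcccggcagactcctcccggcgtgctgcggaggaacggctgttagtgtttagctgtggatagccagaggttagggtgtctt

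The Mcm5 window holds 3 CCAAT boxes and 2 E2F matches that overlap one another, and no CHR. The windows of Cenpa and Ube2c, genes of the mitosis stage, hold a CHR as well as 2 and 6 CCAAT matches, of which a pair in Ube2c overlaps. Ccnb1 holds 2 CCAAT boxes, and the Tk1 window holds none of these letters. The window of the other called gene, E2f1, also holds none. It is not shown because its start lies 466 bases from the GENCODE start, where those of the windows shown lie 31 to 109 bases from it. These matches describe letters in the window and are neither shown binding sites nor causes.

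Among mitosis genes the CHR was present in 79.2% of 24 windows, against 13.3% of 15 replication windows and 17.9% of all 32851 windows. The CCAAT box was present in 87.5% of the mitosis windows and 66.7% of the replication windows, against 37.4% of all windows. A CHR together with a CCAAT box was present in 18 of the 24 mitosis windows and in 6.95% of all windows. The E2F spellings were present in 40.0% of the replication windows, 4.17% of the mitosis windows and 2.26% of all windows. The TATA box was present in 5.13% of the windows of both stages together and 13.6% of all windows. The median GC content was 57.7% in the members' windows, 52.7% in all windows and 56.3% in those of protein-coding genes, of which 38.2% held a CCAAT box and 2.85% an E2F match.

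**Figure D1:**
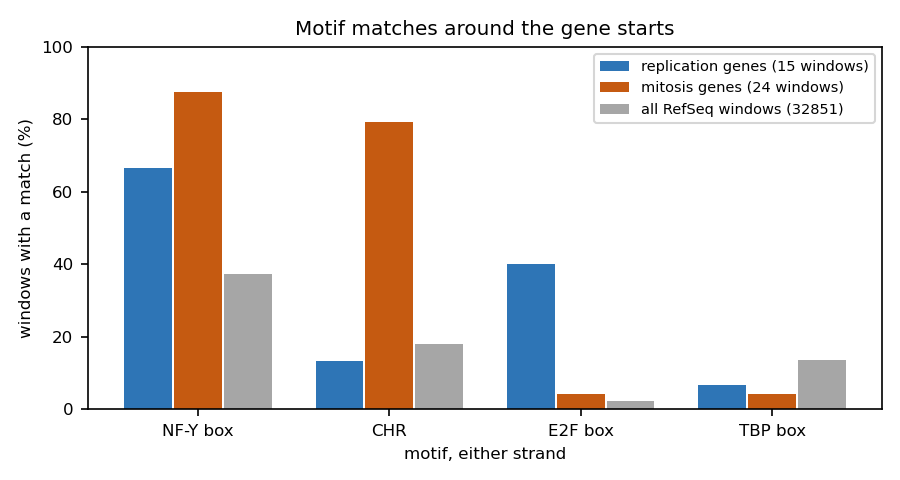
Share of promoter windows (%, vertical axis) with at least 1 match on either strand to the NF-Y box, the CHR, the E2F box and the TBP box (the TATA box), for 15 replication genes, 24 mitosis genes and all 32851 RefSeq windows. The CHR stands at 79.2% in mitosis genes and 13.3% in replication genes, and the E2F box at 4.17% and 40.0%.

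Count totals were 18142034 to 18859320 on ND and 16996896 to 17763638 on HFD. At these depths 3 counts correspond to 0.150 to 0.181 CPM (counts scaled to the TMM-adjusted library size). The HFD libraries differed in adipocyte markers: 12 markers summed to 34461 CPM in HFD2, 23109 CPM in HFD1 and 15300 CPM in HFD3. On ND the sum was 26855 to 33295 CPM. By the mean chi-square per gene between libraries, HFD1 was nearer to HFD2 (41.2) than to HFD3 (65.1). HFD2 and HFD3 were furthest apart (169.6). ND3 stood apart in epithelial genes, with 751 counts of Epcam against 0 to 4 in the other 5 libraries. The main counts of called cell division genes are also given without HFD2, the HFD library nearest the ND mean for these genes. The values above do not single out HFD2 from HFD3. Results without ND3 and without each of the other libraries are given for the calls among cell division genes and adipocyte markers. They are not given for the macrophage and testis germ cell markers. All differences with diet below are log2 fold changes of HFD over ND from edgeR's quasi-likelihood test with Benjamini-Hochberg adjustment over all 15751 genes, and a gene is called where the adjusted p-value is under 0.05.

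Most cell division genes had higher average levels on HFD, but few passed the test. The log2 fold change was above 0 for 43 of the 46 genes, with a median of 1.20 and a range from -0.26 (Cdk2) to 2.14 (Ccnb1). Over all genes tested the median was 0.01, with 50.5% above 0. E2f1 and Tk1 rose, and none of the 46 fell. Those 2 calls make up 4.35% of the members, where 9.85% of all genes tested were called higher and 6.04% lower. At an unadjusted p under 0.05, 28 of the 46 genes were higher, or 60.9%, against 18.7% of all genes tested. None was lower at that p, against 15.3% of all genes. In bulk tissue, more cells of a dividing type and more RNA per cell cannot be told apart.

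The number of called genes depended on which libraries entered the fit and on the test. Without HFD2, edgeR called 37 of the 46 genes higher (80.4%, against 14.5% of all genes tested), 0 lower (against 9.65%), and the median log2 fold change was 1.58. DESeq2's Wald test on all 6 libraries called 23 higher, against 10.7% of all genes, and 0 lower, against 8.42%. All 23 were among the 37 genes called without HFD2, and the E2f1 and Tk1 calls were among the 23. Without ND1, ND2, ND3 or HFD1 edgeR called 0 members, where it called 2.08%, 2.31%, 3.78% and 2.35% of all genes higher. At an unadjusted p under 0.05 these fits had 10, 33, 10 and 11 members higher. Without HFD3 edgeR called 1 member, E2f1, and 8.33% of all genes higher. That fit had 9 members higher and 1 lower at an unadjusted p under 0.05. The shares of all genes at an unadjusted p were not computed for fits that left out a library. The median log2 fold change stayed between 0.79 (without HFD3) and 1.58 when any library was left out. HFD2 was the HFD library nearest the ND mean for these genes (median log2 ratio -0.02), so leaving it out was bound to raise that median. The calls and adjusted p-values without HFD2, here and below, are favoured in the same way and are not separate support for a difference. Apart from E2f1, no member was called when any other library was left out. Single genes ranged over these fits from 0.85 to 1.67 (Pcna), 0.37 to 1.11 (Mcm2), 1.62 to 2.59 (Ccnb1) and 0.65 to 1.57 (Cdk1). Mki67 ran from 1.13 to 2.06, Top2a from 0.93 to 1.87 and Foxm1 from 0.52 to 1.52.

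**Figure D2:**
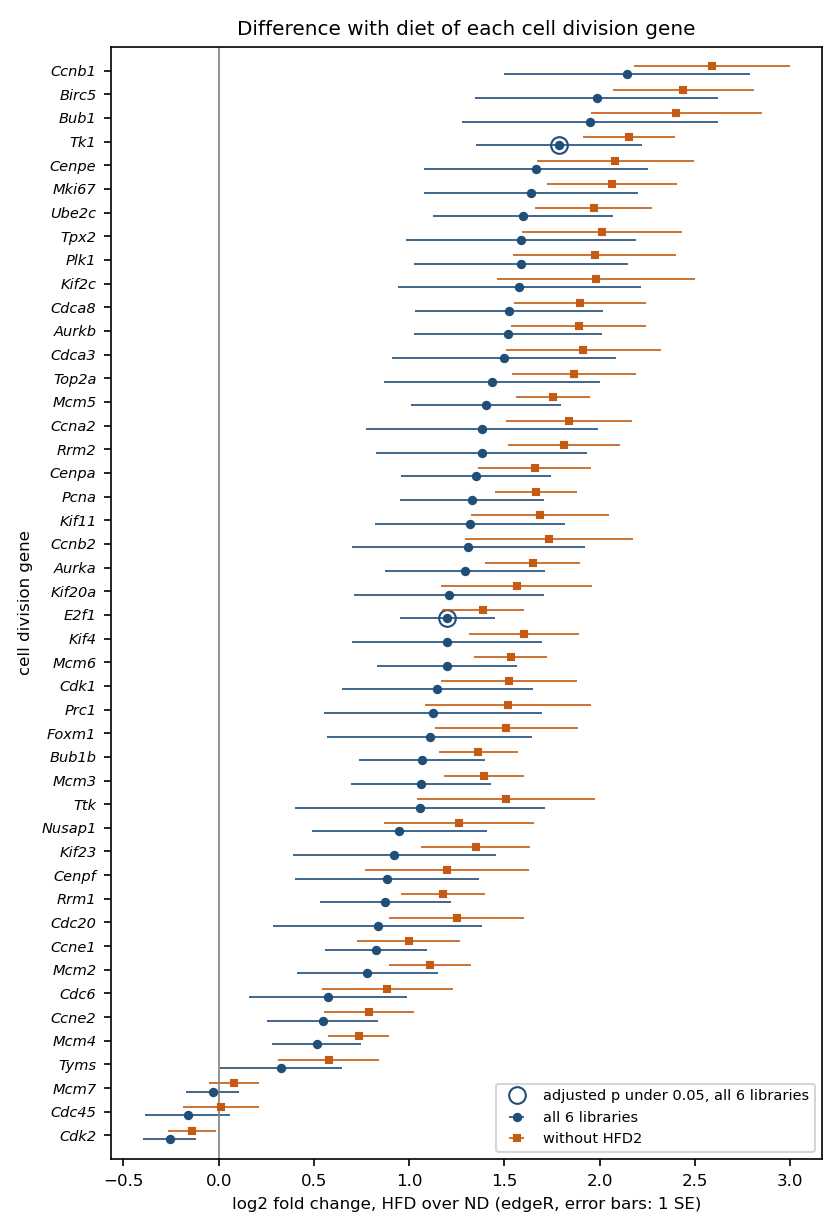
The log2 fold change of HFD over ND (horizontal axis, edgeR, error bars 1 SE) of each of the 46 cell division genes, with all 6 libraries (circles) and without HFD2 (squares). Open rings mark E2f1 and Tk1, the 2 genes with an adjusted p under 0.05, and 43 of the 46 circles lie above 0.

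The genes had a shared order over the libraries. HFD3 was the highest library for 45 of the 46 genes, against 32.7% of all genes tested. HFD1 came next to it, above the other 4 libraries, for 42 genes, an order found in 20.7% of all genes. HFD1 and HFD3 both lay above every ND library for 42 genes, against 30.1% of all genes. HFD2 also lay above every ND library for 7 of those 42: Mcm5, Mcm6, Pcna, Tk1, Ccne1, E2f1 and Cenpa. Such a lack of overlap was found in 21.7% of all genes tested, and in 15.2% of the 46. Over all genes tested in which HFD1 and HFD3 were above ND, HFD2 was above as well in 72.2%. For the 46 genes as a whole HFD2 lay within the ND range in 29 and under it in 10.

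Relative to the mean of the ND libraries, the median log2 ratio of the 46 genes was 1.29 in HFD1, -0.02 in HFD2 and 1.79 in HFD3. On ND it was -0.41 in ND1, 0.48 in ND2 and -0.26 in ND3. ND2 was the highest ND library for 39 of the 46 genes, including all 29 mitosis genes, against 36.4% of all genes tested. Part of the spread between ND libraries was thus shared by these genes.

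**Figure D3:**
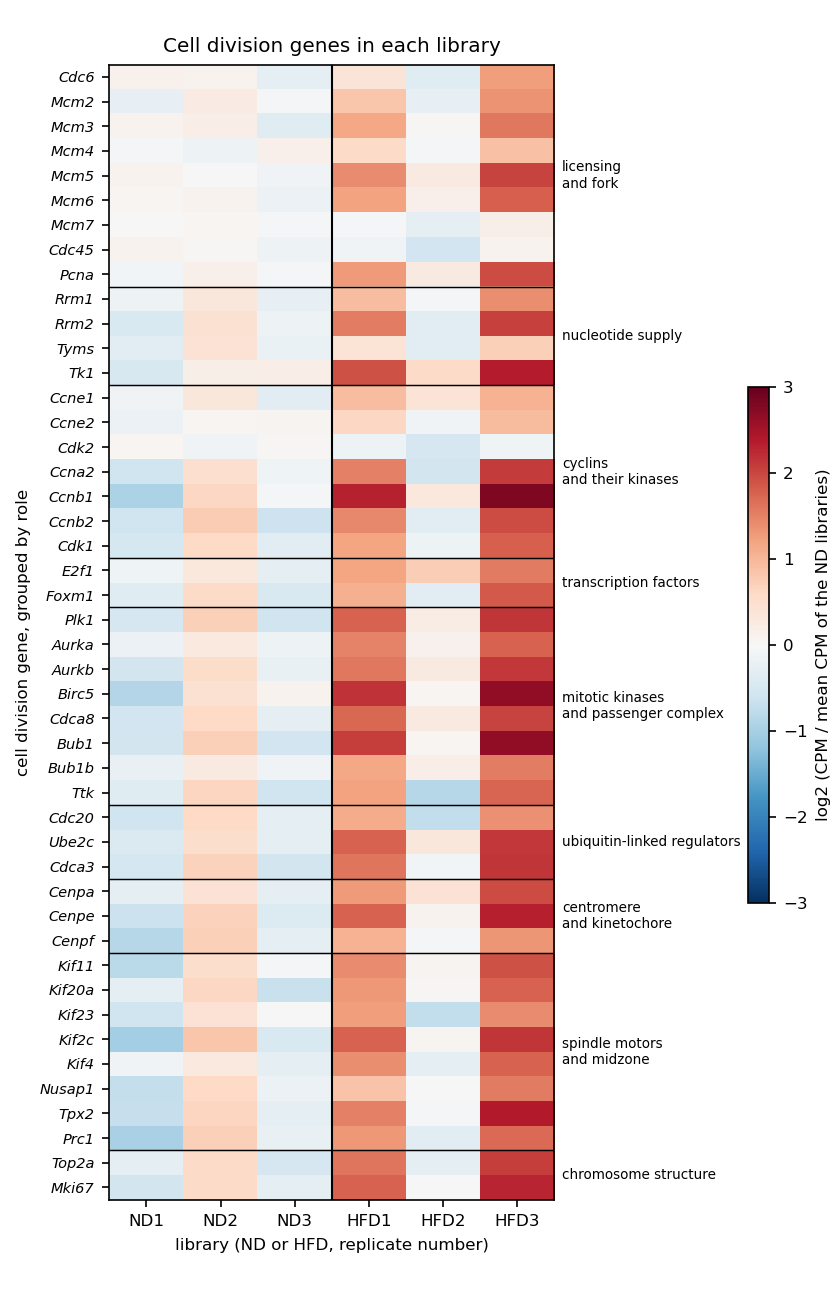
Colour gives the log2 ratio of each gene's CPM to its mean over the ND libraries, with the 46 cell division genes in rows, grouped by role, and the 6 libraries in columns. HFD1 and HFD3 are red in nearly all genes, HFD2 lies near the ND libraries (median -0.02), and Mcm7, Cdc45 and Cdk2 show little colour.

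E2f1, the transcription factor that activates replication genes, lies at chr2:154559407-154569892 on the minus strand of GRCm38 (GENCODE M21, as are the gene positions that follow). Its counts were 221, 283 and 219 in ND1 to ND3, and 542, 364 and 672 in HFD1 to HFD3. All HFD libraries lay above all ND libraries. Levels averaged 13.1 ± 2.91 CPM in the ND libraries and 30.1 ± 8.40 CPM in the HFD libraries (SD, n = 3 each). The log2 fold change was 1.20 (SE 0.25, adjusted p = 0.0227), and 1.39 without HFD2 (adjusted p = 0.00576). It kept its call without HFD3 (adjusted p = 0.0308) and lost it without HFD1, ND1, ND2 or ND3 (adjusted p between 0.0507 and 0.0894). For Foxm1, a factor that activates mitosis genes, the log2 fold change was 1.11 (SE 0.54, adjusted p = 0.194). For Foxm1 HFD2 lay within the ND range, and the log2 fold change was 1.51 without it (adjusted p = 0.0304).

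Tk1, the cytosolic thymidine kinase that salvages thymidine for DNA synthesis, lies at chr11:117815526-117826092 on the minus strand. The ND libraries held 105, 154 and 179 counts and the HFD libraries 544, 194 and 694. HFD2 lay above the highest ND library by a small margin, and HFD1 and HFD3 by a wide one. Levels averaged 7.85 ± 1.89 CPM in the ND libraries and 27.1 ± 14.3 CPM in the HFD libraries (SD, n = 3 each). This gave a log2 fold change of 1.79 (SE 0.44, adjusted p = 0.0351), and 2.15 without HFD2 (adjusted p = 0.00195). Leaving out any of the other 5 libraries ended the call (adjusted p between 0.0729 and 0.120). Tk1 shares exon bases with Afmid on the opposite strand, which had 167 counts against 1870 for Tk1 over all libraries. The other nucleotide supply genes were Rrm1 and Rrm2, the subunits of ribonucleotide reductase, and Tyms, which makes thymidylate. Their log2 fold changes were 0.87, 1.38 and 0.33 (adjusted p 0.125, 0.130 and 0.512). Without HFD2 Rrm1 and Rrm2 passed the test, with log2 fold changes of 1.18 and 1.81, and Tyms had 0.58 (adjusted p = 0.158).

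The 9 licensing and fork genes had log2 fold changes from -0.16 to 1.40. edgeR called 0 of them (against 9.85% of all genes higher). At an unadjusted p under 0.05, 4 were higher (44.4%, against 18.7% of all genes), and DESeq2 called 4 (44.4%, against 10.7%). For Pcna, the sliding clamp that holds DNA polymerase on its template (chr2:132249162-132253314, minus strand), the ND libraries held 1190, 1308 and 1310 counts and the HFD libraries 3041, 1380 and 4650. Each HFD library lay above each ND library, HFD2 only just. Levels averaged 68.5 ± 6.39 CPM in the ND libraries and 172 ± 92.5 CPM in the HFD libraries (SD, n = 3 each). Its log2 fold change of 1.33 (SE 0.38) had an adjusted p of 0.0546, and of 0.00292 without HFD2 (log2 fold change 1.67). For Mcm2, a subunit of the MCM helicase (chr6:88883474-88898780, minus strand), the ND libraries held 227, 298 and 278 counts and the HFD libraries 470, 203 and 636. HFD2 was the lowest of all 6 libraries, by a small margin. Its log2 fold change was 0.78 (SE 0.37, adjusted p = 0.185), and 1.11 without HFD2 (adjusted p = 0.0124).

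The helicase subunits spanned most of that range. For Mcm5 the log2 fold change was 1.40 (adjusted p = 0.0526), and for Mcm6 1.20, Mcm3 1.06 and Mcm4 0.51, while Mcm7 had -0.03 (SE 0.14, adjusted p = 0.894). The Mcm7 libraries lay between 27.9 and 38.6 CPM with the diets interleaved. Cdc45, which travels with the helicase, had a log2 fold change of -0.16 (SE 0.22), and Cdc6, which loads it, 0.58 (SE 0.41). Without HFD2 the values of Mcm7 and Cdc45 turned to 0.08 and 0.01, so neither gene had a direction here. Mcm7 shares exon bases with Cops6 and Cdc45 with Ufd1, each on the opposite strand. These neighbours had 13815 counts against 3623 for Mcm7 and 7684 against 916 for Cdc45 over all libraries. The sources used here do not state whether counting used strand, so how reads in the shared bases were counted is not known.

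Cyclins and their kinases held both the lowest and the highest log2 fold change in the set. edgeR called 0 of the 7 (against 9.85% of all genes higher). At an unadjusted p under 0.05, 2 were higher (28.6%, against 18.7% of all genes), and DESeq2 called 1 (14.3%, against 10.7%). Cdk2, the partner of cyclins E and A, had -0.26 (SE 0.14, adjusted p = 0.234), at 23.6 to 30.8 CPM in the HFD libraries and 31.4 to 35.2 CPM in the ND libraries. Its HFD libraries all lay under its ND libraries, an order whose share of all genes was not computed. For Ccnb1, a B-type cyclin that drives entry into mitosis with Cdk1 (chr13:100778650-100786570, minus strand), the ND libraries held 36, 98 and 71 counts and the HFD libraries 339, 77 and 454. HFD1 and HFD3 were well above ND, and HFD2 lay within the ND range. With all 6 libraries the log2 fold change was 2.14 (SE 0.65, adjusted p = 0.0630), and 2.59 without HFD2 (adjusted p = 0.00659). For Cdk1 itself (chr10:69335146-69352938, minus strand) the ND libraries held 130, 261 and 159 counts and the HFD libraries 416, 150 and 604. ND2 lay above HFD2 for Cdk1. Its log2 fold change was 1.15 (SE 0.50, adjusted p = 0.156), and 1.53 without HFD2 (adjusted p = 0.0251).

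Of the remaining cyclins, the log2 fold change was 1.38 for Ccna2, and for Ccnb2 1.31, Ccne1 0.83 and Ccne2 0.55, with adjusted p-values of 0.158, 0.179, 0.0765 and 0.233. Ccne1, a cyclin of the start of DNA synthesis, had every HFD library above every ND library. Ccne2 and Ccna2 each share exon bases with an opposite-strand gene of more counts (Ints8 and Exosc9). Without HFD2 edgeR called 5 of these 7 cyclin and kinase genes (71.4%, against 14.5% of all genes higher), all but Cdk2 and Ccne2.

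**Figure D4:**
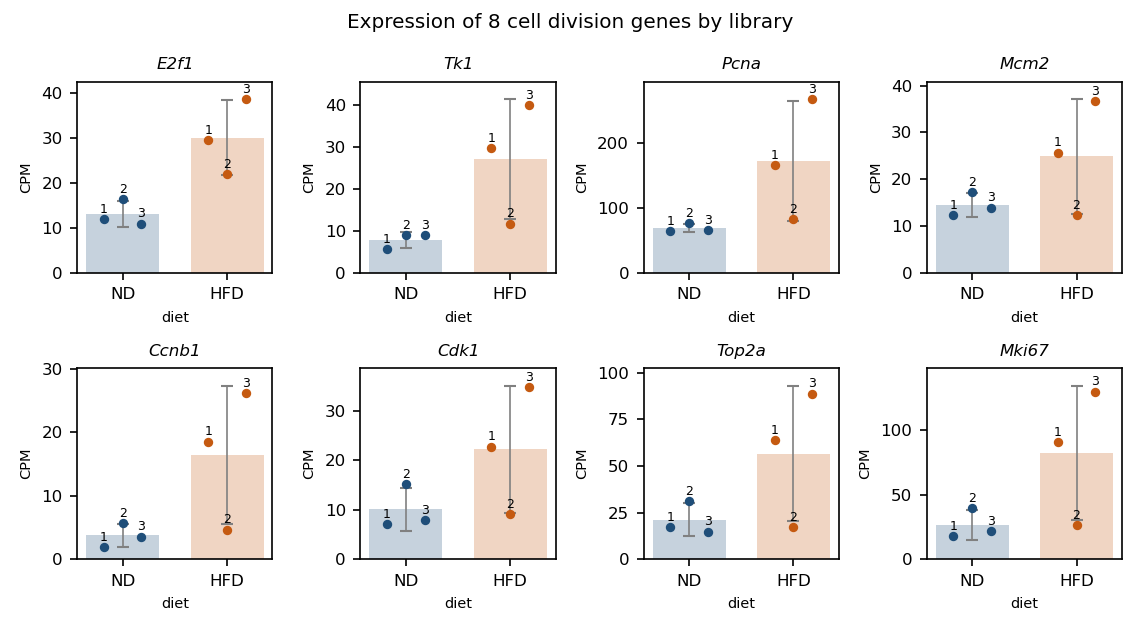
CPM (vertical axis, from 0) of 8 cell division genes on ND and HFD; bars are means of 3 libraries, error bars 1 SD, and numbered points the libraries. HFD2 is the lowest HFD library in each gene, and for E2f1, Tk1 and Pcna it lies above all 3 ND libraries.

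All 29 mitosis genes had a positive log2 fold change, with a median of 1.35, yet edgeR called 0 of them (against 9.85% of all genes higher). At an unadjusted p under 0.05, 19 were higher (65.5%, against 18.7% of all genes), and DESeq2 called 16 (55.2%, against 10.7%). Without HFD2 edgeR called 26 (89.7%, against 14.5%). The 17 replication genes had 14 positive values, a median of 0.83 and the 2 calls (11.8%), with 11 calls without HFD2 (64.7%). Every HFD library lay above every ND library in 6 of the 17 replication genes (35.3%) and 1 of the 29 mitosis genes (3.45%). Of all genes tested, 21.7% had that lack of overlap. The difference between the stages was not tested.

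Mki67, the proliferation marker that coats mitotic chromosomes (chr7:135689784-135716361, minus strand), counted 335, 684 and 433 in ND1 to ND3 and 1658, 439 and 2257 in HFD1 to HFD3. HFD2 lay within the ND range, under ND2. Levels averaged 26.5 ± 11.6 CPM in the ND libraries and 82.3 ± 52.3 CPM in the HFD libraries (SD, n = 3 each). Its log2 fold change was 1.64 (SE 0.56, adjusted p = 0.0884), and 2.06 without HFD2 (adjusted p = 0.00788). Top2a, the topoisomerase that untangles chromosomes before they separate (chr11:98992943-99024189, minus strand), counted 319, 537 and 295 in ND1 to ND3 and 1171, 286 and 1544 in HFD1 to HFD3. For Top2a too, HFD2 lay within the ND range and ND2 above it. Its log2 fold change was 1.43 (SE 0.57, adjusted p = 0.126), and 1.87 without HFD2 (adjusted p = 0.00957).

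The 8 genes of mitotic kinases and the chromosomal passenger complex were Plk1, Aurka, Aurkb, Birc5, Cdca8, Bub1, Bub1b and Ttk. Their log2 fold changes ran from 1.06 (Ttk) to 1.99 (Birc5). edgeR called 0 of them (against 9.85% of all genes higher) and DESeq2 7 (87.5%, against 10.7%). At an unadjusted p under 0.05 edgeR had 7 higher (87.5%, against 18.7% of all genes). Birc5, or survivin, a subunit of the passenger complex, counted 44, 104 and 95 in ND1 to ND3 and 362, 76 and 481 in HFD1 to HFD3 (edgeR adjusted p = 0.0754). Aurkb, the kinase of that complex, and Cdca8, another subunit, both had 1.52 on the log2 scale (adjusted p 0.0780 and 0.0769). Bub1 and Bub1b, of the spindle checkpoint, had 1.95 and 1.07, Plk1 (Polo kinase) 1.59 and Aurka 1.29. For all 8 genes HFD1 and HFD3 lay above every ND library and HFD2 did not.

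The ubiquitin-linked regulators Ube2c, Cdca3 and Cdc20 had log2 fold changes of 1.60, 1.50 and 0.83. Ube2c, an enzyme that works with the anaphase-promoting complex, counted 111, 204 and 133 in ND1 to ND3 and 509, 171 and 621 in HFD1 to HFD3 (edgeR adjusted p = 0.0601). Cdc20, an activator of that complex, shares exon bases with the more abundant Elovl1 on the opposite strand. The centromere genes Cenpa, Cenpe and Cenpf had 1.35, 1.67 and 0.88. Cenpa, the histone variant of centromeres, was the 1 mitosis gene with no overlap between the diets, at 146, 224 and 161 counts in ND1 to ND3 against 426, 217 and 649 in HFD1 to HFD3. Once scaled to library size, HFD2 (13.1 CPM) lay just above ND2. Its adjusted p was 0.0574, and 0.0102 without HFD2.

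The 8 genes of spindle motors and the spindle midzone had log2 fold changes from 0.92 (Kif23) to 1.59 (Tpx2), and edgeR called 0 of them (unadjusted p under 0.05 in 5, DESeq2 2). Tpx2, which promotes spindle assembly and activates Aurora A, counted 90, 212 and 131 in ND1 to ND3 and 411, 127 and 712 in HFD1 to HFD3 (edgeR adjusted p = 0.114). The motors Kif11, Kif20a, Kif2c and Kif4 had 1.32, 1.21, 1.58 and 1.20, and Nusap1 and Prc1, which bundle microtubules, 0.95 and 1.12. Without HFD2 edgeR called 7 of the 8 (87.5%, against 14.5% of all genes higher), all but Nusap1. Kif20a and Kif4 share exon bases with opposite-strand genes of more counts (Cdc23 and Pdzd11). In all, 8 of the 46 genes overlapped a gene with at least as many counts, with a median log2 fold change of 1.02 against 1.30 for the other 38.

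Levels between genes were compared per unit of transcript length, in FPKM. The median of the group means was 1.74 FPKM on ND and 4.36 FPKM on HFD, against 4.51 and 4.74 FPKM over all genes tested. Pcna had the highest level of the 46 on both diets, at 29.0 ± 2.84 FPKM on ND and 72.1 ± 38.6 FPKM on HFD (SD, n = 3 each). Ttk had the lowest, at 0.314 ± 0.16 and 0.644 ± 0.44 FPKM. On ND the next genes after Pcna were Mcm7 (7.77 ± 0.34), Cdk2 (5.50 ± 0.31), Mcm6 (5.40 ± 0.56) and Mcm4 (5.37 ± 0.51 FPKM), of which the last 3 lay within 1 SD of each other. On HFD the genes after Pcna were Mcm6 (12.2 ± 6.24), Mcm3 (10.3 ± 4.87) and Ccnb2 (9.90 ± 6.27 FPKM), with spreads larger than the gaps between them.

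A wider list of 154 further cell division genes was read from the same fit. Their median log2 fold change was 0.72, and 135 of the 154 lay above 0. edgeR called 11 higher (7.14%, against 9.85% of all genes) and 1 lower, where 6.04% of all genes were lower. Without HFD2 it called 74 higher (48.1%, against 14.5%) and 3 lower, where 9.65% of all genes were lower. DESeq2 called 40 higher and 2 lower, against 10.7% and 8.42% of all genes. None of the 12 calls remained without ND1 (adjusted p between 0.0638 and 0.163) or without HFD1 (0.0657 to 0.167), and 2, 1, 11 and 4 remained without ND2, ND3, HFD2 and HFD3. The 34 spindle and cytokinesis genes all had positive values, with a median of 1.16, and the 25 genes of D-type cyclins, their kinases and pocket proteins had a median of 0.27.

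Wee1, the kinase that holds Cdk1 inactive, counted 157, 138 and 230 in ND1 to ND3 and 567, 296 and 584 in HFD1 to HFD3, with a log2 fold change of 1.56 (SE 0.27, adjusted p = 0.0139). It was the 1 called gene of 12 checkpoint kinase and Cdc25 genes (8.33%, against 9.85% of all genes higher). Without HFD2 edgeR called 3 of these 12 higher, where 14.5% of all genes were called higher. Gtse1, which binds microtubules, counted 16, 41 and 28 in ND1 to ND3 and 132, 73 and 148 in HFD1 to HFD3 (log2 fold change 2.12, SE 0.44, adjusted p = 0.0220). Anln, the anillin of the cleavage furrow, rose by 0.67 on the log2 scale (adjusted p = 0.0231). In both genes HFD2 lay above the ND libraries.

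Among 42 origin and fork genes, 4 rose (9.52%, against 9.85% of all genes) and 1 fell, where 6.04% of all genes fell. Without HFD2 edgeR called 20 higher and 2 lower, and DESeq2 called 11 and 2 on all libraries. For all genes, edgeR without HFD2 called 14.5% higher and 9.65% lower, and DESeq2 10.7% and 8.42%. Gmnn, or geminin, which blocks relicensing of origins, rose by 1.31 on the log2 scale (adjusted p = 0.0357), and Dnmt1, the maintenance DNA methyltransferase, 1.11 (adjusted p = 0.0474). Orc6, a subunit of the origin recognition complex, fell by 0.43 on the log2 scale (SE 0.11, adjusted p = 0.0368), from 491, 470 and 551 counts in ND1 to ND3 to 356, 339 and 353 in HFD1 to HFD3. Orc6 shares exon bases with Vps35 on the opposite strand, which had 21461 counts against 2560 for Orc6 over all libraries. How reads in the shared bases were counted is not known. Its call was also lost with scaling to library size only (adjusted p = 0.0573) and without the filter on low counts (adjusted p = 0.0840). The 25 genes of D-type cyclins, their kinases and pocket proteins also include E2F factors and Skp2, and no D-type cyclin was called. The 3 called genes of this list (12.0%, near the share of all genes) were the E2F factors E2f3 and E2f6 and the F-box protein Skp2. They rose by 0.62, 0.42 and 1.30 on the log2 scale, and E2f6 lost its call without HFD2 (adjusted p = 0.0675). Without HFD2 edgeR called 7 of the 25 higher and 1 lower, and DESeq2 called 6 and 0 on all libraries. Spc25 of the kinetochore was the 1 called gene of 41 in its list (2.44%), with a log2 fold change of 1.77 (adjusted p = 0.0497). In that list edgeR called 20 without HFD2 and DESeq2 11. The 34 spindle and cytokinesis genes held 2 calls, Gtse1 and Anln (5.88%), and 24 without HFD2, with 11 by DESeq2.

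Markers of other cells moved with diet beside the cell division genes, and their part in the differences was not tested. Of 15 macrophage markers, 10 rose (66.7%, against 9.85% of all genes) and 0 fell (against 6.04%), while 3 had a log2 fold change under 0. Without HFD2 edgeR called 12 of them higher and 0 lower, where 14.5% and 9.65% of all genes were called. Their summed level was 2053 to 2149 CPM in the ND libraries and 5546, 4312 and 9299 CPM in HFD1 to HFD3. Of 10 markers of lipid-associated macrophages, 9 rose, and edgeR called all 10 higher without HFD2. Their sum went from 1031 to 1549 CPM on ND to 8102, 4895 and 16362 CPM on HFD. Trem2, a receptor of these macrophages, counted 144, 132 and 194 in ND1 to ND3 and 5241, 2783 and 9442 in HFD1 to HFD3 (log2 fold change 5.31). In HFD2 both sums lay above every ND library, while the 29 mitosis genes summed to 198 CPM in HFD2 and 143 to 305 CPM on ND. The mitosis sum was 589 CPM in HFD1 and 835 CPM in HFD3, and the 17 replication genes summed to 295 to 346 CPM in the ND libraries and 593, 321 and 836 CPM in HFD1 to HFD3.

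**Figure D5:**
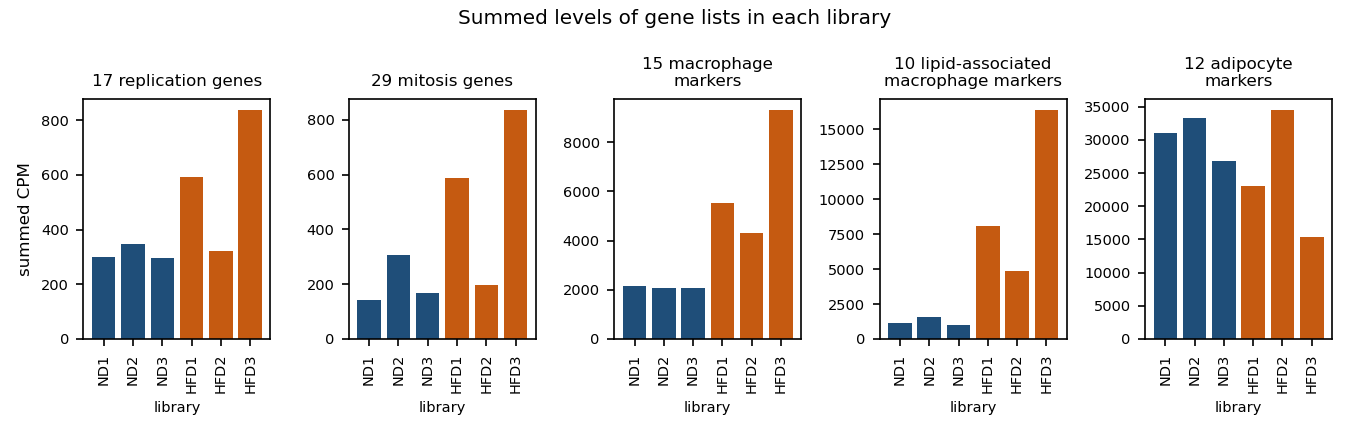
Summed CPM (vertical axis, from 0, its own scale in each panel) of the 17 replication genes, the 29 mitosis genes and 3 lists of cell type markers in each of the 6 libraries, ND dark and HFD orange. HFD2 lies above ND for both macrophage lists and within the ND range for the cell division genes.

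The tissue's own markers were present, with 26855 to 33295 CPM summed over 12 adipocyte markers in the ND libraries and 15300 to 34461 CPM in the HFD libraries. Of these 12, 10 had a log2 fold change under 0, with a median of -0.58. Lep, which encodes leptin, rose by 1.38 on the log2 scale, and Retn and Adrb3 fell by 2.05 and 1.84. All 3 calls were lost without ND1, ND2, ND3 or HFD1 (adjusted p between 0.0508 and 0.137) and kept without HFD2 or HFD3. DESeq2 called 1 adipocyte marker higher and 5 lower, and edgeR without HFD2 1 higher and 6 lower. HFD3 had the lowest adipocyte sum and the highest level of 45 of the 46 cell division genes, and HFD2 had the highest adipocyte sum. None of the 12 progenitor and fibroblast, 10 endothelial, 12 T and NK lymphocyte, 8 B and plasma cell and 8 mesothelial markers was called by edgeR. These lists summed to 5251 to 5995, 1474 to 1807, 22.7 to 29.1, 284 to 485 and 235 to 438 CPM in the ND libraries, and to 3812 to 7002, 848 to 1699, 23.4 to 31.9, 468 to 654 and 162 to 288 CPM in the HFD libraries. At an unadjusted p under 0.05 none of these was higher, 1 endothelial and 1 mesothelial marker were lower, and DESeq2 called 1 endothelial marker lower, as did edgeR without HFD2 (Kdr).

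The 8 epithelial markers summed to 10.3, 12.3 and 89.7 CPM in ND1 to ND3 and 11.4 to 13.1 CPM in the HFD libraries, with Krt5 at 0 in all libraries. Of the 3 tested, none was called by edgeR or DESeq2 and none had an unadjusted p under 0.05. The median log2 ratio of the cell division genes in ND3 was -0.26. Of 12 testis germ cell markers 5 were tested and 1, Sycp3, rose, from 93, 105 and 86 counts in ND1 to ND3 to 828, 503 and 468 in HFD1 to HFD3. In this list edgeR also called 1 higher without HFD2. Sycp1, a defining gene of meiotic cells, was at 0 in every library, and Ddx4 and Dazl had 0 to 11 counts. The list summed to 6.69 to 18.2 CPM in the ND libraries and 29.1 to 50.7 CPM in the HFD libraries. Of 8 erythroid markers 6 were tested, none was called by edgeR or DESeq2 or had an unadjusted p under 0.05, and the sums were 575 to 869 CPM in the ND libraries and 299.7 to 1044 CPM in the HFD libraries, lowest in HFD3.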

How the data were processed

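The authors deposited raw gene counts and FPKM values per library, both without pooling. The paper's methods name TopHat and Cufflinks on GRCm38 (mm10), whereas the submitters' processing notes list CASAVA 1.8, fastp, HISAT2 2.0.5, featureCounts 1.5.0-p3, DESeq2 1.20.0 and hg38, a human build, for these mouse libraries. The annotation release and the strand setting are not given in the sources used here. If reads of overlapping genes were not split by strand, reads in shared exon bases could have been lost from or added to the counts of members. Among the members, 14 share exon bases with another gene that had counts. For 8 of these 14, that gene had at least as many counts as the member.

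Genes were named with GENCODE M21 on GRCm38 (54495 of 54532 identifiers found). From the counts, edgeR 4.0.16 in R 4.3.3 (filterByExpr, TMM, glmQLFit with robust=TRUE, glmQLFTest) compared HFD with ND, with Benjamini-Hochberg adjustment and a threshold of 0.05. The SE was the size of the log2 fold change over the root of F. CPM used TMM-scaled library sizes. An exact two-sided permutation test of 3 against 3 reaches no lower than p = 0.10 and was not used. Alternatives were DESeq2 1.42.0, other scalings and filters, robust=FALSE, a replicate block, leaving out 1 library at a time, and limma 3.58.1 on log2(FPKM + 1) or log2(FPKM + 0.1), keeping genes that reached 0.5 FPKM in 3 libraries or, with the first, all genes. The methods were tested on simulated data. The floor of 3 counts covers counting error only. Promoter sequences are RefSeq's (GRCm38.p6).

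The members and lists were chosen with earlier results of these data known. All 46 members could be named; of the other lists, the 3 called genes with the smallest adjusted p, and of marker lists, called genes as examples. Krt5, Sycp1, Ddx4, Dazl and Epcam were named after their values were seen. The subcutaneous fat was not analysed here.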

Additional observations from a re-analysis of the deposited data

How the results depend on the processing

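The 43 members with a positive log2 fold change kept that direction in all 16 alternatives that gave them a value, and none of the 46 was called lower in any. The number called higher did not hold. It was 23 with DESeq2, 1 without the filter on low counts, 1 on log2(FPKM + 1) and on log2(FPKM + 0.1), 0 on unfiltered FPKM, and 0 to 37 when 1 library was left out. Tk1 lost its call without the filter (edgeR adjusted p = 0.0862) and on both filtered FPKM scales (limma adjusted p = 0.0659 and 0.0601). E2f1 kept its call in these 3 fits. The further cell division genes called higher numbered 40 with DESeq2, 7 with DESeq2's size factors, 6 and 5 on the 2 FPKM scales, 0 on unfiltered FPKM, and 0 to 74 with 1 library left out. Those called lower numbered 2 with DESeq2, 2 with its size factors, 0 with library size only, 0 without the filter, 3 on each filtered FPKM scale, and 0 to 3 with 1 library left out. Over all genes, DESeq2 called 1596 lower, unfiltered FPKM gave 394 higher and 255 lower, and leaving out 1 library gave 337 to 2368 higher and 94 to 1572 lower. With 1 library left out, the log2 fold change of Mcm7 ran from -0.171 to 0.0817 (above 0 without ND2 or HFD2) and that of Cdc45 from -0.340 to 0.0124 (above 0 without HFD2). The causes were not tested.

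The labels do not say whether same-numbered samples were paired. The deviations of ND1 and HFD1, ND2 and HFD2, and ND3 and HFD3 from their group means correlated at -0.0858, -0.0556 and -0.00532 across genes. These values show no pairing shared across genes, but cannot exclude one that affects only some genes. With the replicate block, 0 members were called, and 4 further cell division genes were called higher and 0 lower.

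Counts were low for some members: Ttk, with the fewest, had 14 to 89 per library.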
